A study of Mus musculus with 6 samples.

Results

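The Hand2 peaks of the mandibular prominence (MNP) were divided by whether they shared at least 1 bp with a Gli3 peak of the same tissue. Of 59583 Hand2 peaks, 3512 (5.89%, Wilson 95% interval 5.71 to 6.09) touched Gli3 and 56071 did not. The Gli3 MNP list held 5424 peaks on the same chromosomes, and the 3 peak lists of the study held 70759 peaks together. Seen from the Gli3 side, 3333 of the 5424 Gli3 peaks (61.4%) were touched by a Hand2 peak. The much shorter Gli3 list limits the share of Hand2 peaks that can touch it, here and in all shares below. All positions are in the mouse assembly mm10 (GRCm38).

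ChIP-seq, in which DNA bound by a protein is pulled down with an antibody and sequenced, was carried out with the anti-FLAG M2 antibody on facial tissue of CD1 mouse embryos labelled embryonic day 11.5, a stage given as E10.5 in the design text of the series. The 3 groups were Hand2 in the MNP, Gli3 in the MNP and Gli3 in the whole face, with 2 libraries in each. Embryos carried a tag at an endogenous locus, labelled Gli3 3XFlagbio or Hand2 3XFlagbio, so the tagged protein and the embryos differed together between the groups. The mock ChIP used tissue of wild-type embryos. Each ChIP was made on pooled embryonic tissue, which mixes mesenchyme with epithelium, muscle precursors, vessels and nerve, and the lists do not say in which cells a peak was bound. Binding in fewer cells and weaker binding per cell cannot be told apart. The lists give a start, an end and the merged names of each peak, with no read count or peak height, so the depth is unknown and the labelled tissue could not be checked by marker levels.

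Hand2 is a bHLH transcription factor that binds E-box sequences, usually as a dimer with a widely expressed E protein, and it is known for specifying the lower jaw downstream of endothelin signalling. Gli3 is a zinc finger transcription factor of the Hedgehog pathway. It acts as a repressor without Hedgehog signal, and its target genes are relieved of this repression when the signal arrives. The study describes Gli3 as an activator too, and proposes that it activates genes together with Hand2 in the MNP. Both proteins are made in the mesenchyme of the MNP, which derives from the neural crest and forms cartilage, bone and connective tissue of the jaw. The comparison addresses which Hand2 peaks shared sequence with a peak of the Gli3 MNP list and which did not. The lists come from different embryos, so a shared place does not show that both proteins bound together. Nor does a Hand2 peak without Gli3 show that Hand2 bound alone: 1441 such peaks touched the Gli3 whole face list.

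The sequences of 6 Hand2 peaks show the motifs counted below. Each is the middle 200 bp of the peak, on the plus strand of the RefSeq GRCm38.p6 assembly. Capitals mark CAGATG, an E-box of Hand2, or its reverse complement CATCTG, and the GLI motifs GACCACCC and GACCTCCC on either strand (GGGAGGTC is GACCTCCC read on the other strand). The peaks downstream of Hand2 and Twist1 did not touch Gli3 and are shown for their E-boxes. The peaks downstream of Foxd1, in an intron of Ptch1 and between Dlx6 and Dlx5 touched Gli3: the Foxd1 peak held an E-box and neither GLI motif, the Ptch1 peak held both an E-box and GACCACCC, and the Dlx5 peak held GLI motifs without CAGATG. The last peak, in an intron of Lingo2, is shown because CAGATG was repeated 14 times in its middle 200 bp.
Hand2 downstream, without Gli3, chr8:57328416-57328615: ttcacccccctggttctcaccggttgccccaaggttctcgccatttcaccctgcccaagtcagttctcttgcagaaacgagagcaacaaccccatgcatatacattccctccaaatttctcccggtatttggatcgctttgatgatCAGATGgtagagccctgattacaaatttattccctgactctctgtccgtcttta
Twist1 downstream, without Gli3, chr12:33980251-33980450: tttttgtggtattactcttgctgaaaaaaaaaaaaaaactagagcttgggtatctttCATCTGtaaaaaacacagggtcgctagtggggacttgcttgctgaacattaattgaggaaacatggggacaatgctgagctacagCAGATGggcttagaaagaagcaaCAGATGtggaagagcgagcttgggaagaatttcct
Foxd1 downstream, with Gli3, chr13:98374232-98374431: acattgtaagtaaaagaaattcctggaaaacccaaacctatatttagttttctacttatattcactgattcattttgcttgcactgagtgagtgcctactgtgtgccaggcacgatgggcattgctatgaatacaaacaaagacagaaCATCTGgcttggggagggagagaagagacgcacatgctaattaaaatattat
Ptch1 intron, with Gli3, chr13:63566261-63566460: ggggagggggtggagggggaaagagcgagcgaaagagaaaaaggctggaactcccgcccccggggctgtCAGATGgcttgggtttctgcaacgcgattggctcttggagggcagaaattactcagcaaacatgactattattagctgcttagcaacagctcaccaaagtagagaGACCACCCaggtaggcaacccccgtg
Dlx6 to Dlx5 interval, with Gli3, chr6:6875202-6875401: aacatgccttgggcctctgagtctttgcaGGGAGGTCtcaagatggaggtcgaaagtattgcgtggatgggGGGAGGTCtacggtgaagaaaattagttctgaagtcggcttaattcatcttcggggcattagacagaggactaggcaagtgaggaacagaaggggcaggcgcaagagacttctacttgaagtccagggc
Lingo2 intron, without Gli3, chr4:36647118-36647317: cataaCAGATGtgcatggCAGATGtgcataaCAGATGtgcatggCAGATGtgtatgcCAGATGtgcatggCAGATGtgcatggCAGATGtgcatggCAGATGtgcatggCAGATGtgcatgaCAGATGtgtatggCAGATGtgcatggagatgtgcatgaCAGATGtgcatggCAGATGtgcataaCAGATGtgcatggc

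The Hand2 peaks that touched Gli3 mostly shared more than an edge with it. A single Gli3 peak was touched by 3432 of them, 2 Gli3 peaks by 79 and 3 Gli3 peaks by 1. The Gli3 peak covered a median of 70.2% of the Hand2 peak, 753 Hand2 peaks (21.4%) lay wholly inside a Gli3 peak and 832 (23.7%) held a Gli3 peak whole. The midpoints of the touching peaks were a median of 185 bp apart, with quartiles of 77 and 348 bp. Close to the limit of the rule, 64 touching peaks shared less than 50 bp and 39 peaks that did not touch had a gap of less than 50 bp. Of the Hand2 peaks that did not touch Gli3, 2181 (3.89%) had a Gli3 peak within 5 kb, and their median distance to the nearest Gli3 peak was 146997 bp.

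Hand2 peaks with Gli3 were mostly at promoters and Hand2 peaks without Gli3 were mostly far from a start of transcription. The transcription start site (TSS) of some protein-coding gene was within 1 kb of the midpoint in 2058 of 3512 peaks with Gli3 (58.6%) and in 4351 of 56071 peaks without Gli3 (7.76%). The difference was 50.8 percentage points (Newcombe 95% interval 49.2 to 52.5), the odds ratio was 16.8, and the p-value of the two-sided Fisher's exact test was below the smallest number the software can hold. The share was higher with Gli3 on 20 of 21 chromosomes. The median distance to a TSS was 509.5 bp with Gli3 and 57674 bp without. Peaks are not replicates of the experiment and both replicates were merged before deposit, so intervals and p-values cover the counting of peaks and not the spread between embryos.

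The share of Hand2 peaks that touched Gli3 fell with distance from the TSS. It was 32.1% (95% interval 31.0 to 33.3) within 1 kb, 8.68% (7.79 to 9.65) at 1 to 5 kb and 3.11% (2.76 to 3.51) at 5 to 20 kb. At 100 to 500 kb, the bin with the most Hand2 peaks (17565), it was 1.72% (1.54 to 1.92). Beyond 500 kb, 41 of 2895 Hand2 peaks (1.42%) touched Gli3. Most promoter peaks of Hand2 were without Gli3, although promoters held most of the touching peaks.

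**Figure D1:**
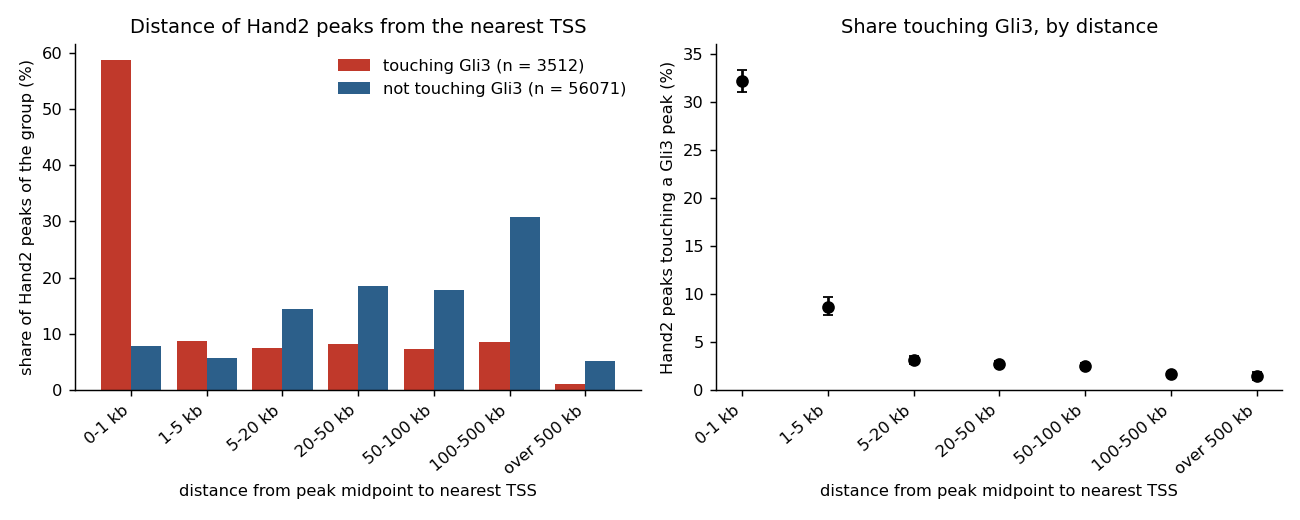
Left, share of Hand2 peaks (%, y axis) in 7 bins of distance from the peak midpoint to the nearest protein-coding TSS (kb, x axis), for peaks touching Gli3 (red, n = 3512) and not touching (blue, n = 56071). Right, share of the Hand2 peaks of each bin that touch Gli3 (%), with Wilson 95% intervals as bars; it is 32.1% within 1 kb and 1.42% beyond 500 kb.

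The promoter difference depended on the Gli3 list. With the whole face Gli3 list in place of the MNP list, 20.1% of the touching Hand2 peaks and 10.3% of the others were within 1 kb of a TSS, a difference of 9.75 points. The 1265 Hand2 peaks that touched both Gli3 lists were at promoters in 29.3%, the 2247 that touched the MNP list alone in 75.1%, the 1441 that touched the whole face list alone in 11.9% and the 54630 that touched neither in 7.65%. The Hand2 peaks that touched only the Gli3 MNP list had a median G+C content of 64.4%, against 54.1% for those touching both lists and 46.4% for those touching neither. The lists also differ in tissue, in which the whole face includes the MNP, and in how their peaks were named by the authors, and these differences cannot be told apart.

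Away from promoters, both kinds of peaks were alike in their intron share but differed in exon share and base composition. Beyond 1 kb of a TSS, 45.5% of Hand2 peaks with Gli3 and 46.0% of those without had their midpoint in an intron. Exons held 9.83% (8.41 to 11.5) with Gli3 and 2.94% (2.79 to 3.08) without, and intergenic sequence held 44.7% and 51.0%. The share of G and C bases was higher with Gli3 in both places, with medians of 65.3% and 60.9% within 1 kb of a TSS and 53.2% and 45.9% beyond. By 5 classes of G+C content, from low to high, 0.788%, 1.41%, 1.94%, 3.17% and 22.2% of Hand2 peaks touched Gli3. Beyond 1 kb of a TSS, peaks with Gli3 held a median of 2.16 CpG dinucleotides per 100 bp and peaks without 1.10, and within 1 kb the medians were 8.60 and 6.50.

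The share of Hand2 peaks that touched Gli3 differed between chromosomes. Among the autosomes it was lowest on chromosome 14, with 118 of 2665 (4.43%), and highest on chromosome 11, with 305 of 3513 (8.68%). On the X chromosome 16 of 1015 Hand2 peaks (1.58%) touched Gli3, below every autosome. On the Y chromosome 1 of 20 did. The sex of the pooled embryos is not given in the labels, and its part in these shares was not tested.

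Hand2 peaks with Gli3 were wider. Their median width was 615 bp (quartiles 455 and 846) against 442 bp (342 and 605) without Gli3. Of the peaks with Gli3, 75.6% were wider than the median Hand2 peak, against 48.2% of the others. A wider peak has more sequence with which to touch another peak, so width was described and not tested. From the narrowest to the widest of 5 width classes, 2.06%, 3.05%, 4.77%, 7.02% and 12.6% of Hand2 peaks touched Gli3. Within 1 kb of a TSS the share rose from 16.6% in the narrowest class to 48.7% in the widest, and beyond 1 kb from 0.887% to 6.41%.

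The names kept in the lists record which calls of each replicate were merged into a peak, and a letter after the call number was read as 1 of several summits of that call. Every Hand2 peak carried at least 1 name of each replicate, so each had been called in both. Replicate 1 contributed 66689 names from 61103 calls, whose highest number was 75674, and replicate 2 contributed 65366 names from 60171 calls, whose highest number was 82372. If calls were numbered without gaps, the deposited Hand2 peaks hold 80.7% of the calls of replicate 1 and 73.0% of those of replicate 2. For Gli3 in the MNP the same shares were 28.3% and 93.8%, so its 2 replicates were less alike in their number of calls than those of Hand2.

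Hand2 peaks with Gli3 more often held several summits. Of peaks with Gli3 33.4% carried 3 or more merged names, against 12.1% of those without, a difference of 21.3 points (19.7 to 22.9, odds ratio 3.63, Fisher's exact test, adjusted over 6 tests by Benjamini-Hochberg, adjusted p = 9.74e-218). The odds ratio was 1.89 (Mantel-Haenszel) when peaks were compared within 5 width classes, a lower value. Wider peaks carried more names and also touched Gli3 more often. The widest class runs from 672 to 6248 bp, so these classes do not fully take out width. Both replicates showed the difference. In replicate 1, 26.3% of peaks with Gli3 and 9.45% of those without had at least 2 names, and in replicate 2 the shares were 22.9% and 7.77%. In the widest class they were 52.6% and 39.8% in replicate 1 and 48.2% and 35.4% in replicate 2.

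Counted the other way, the share touching Gli3 rose with the number of names. It was 4.53% for the 51607 Hand2 peaks with 2 names, 13.0% with 3, 14.2% with 4, 23.8% with 5 and 26.5% with 6, and 10 of the 23 peaks with 8 names touched Gli3. The peak with the most names did not. It was also the widest Hand2 peak, 6248 bp at chr13:6605681-6611928 in an intron of Pfkp, a glycolytic enzyme gene, with 18 names of replicate 1 and 14 of replicate 2. Of its sequence 96.5% was marked as repeat or low complexity in the reference, against a median of 9.71% for all Hand2 peaks. The next widest peaks lay between Mki67 and Mgmt (3409 bp), in an exon of Pdzph1 (3151 bp), between Arhgap28 and L3mbtl4 (3118 bp) and in an intron of Trio (3053 bp), none with Gli3. The widest Hand2 peak with Gli3, the eighth of all, was 2796 bp between the histone genes Hist1h2ao and Hist1h4m.

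**Figure D2:**
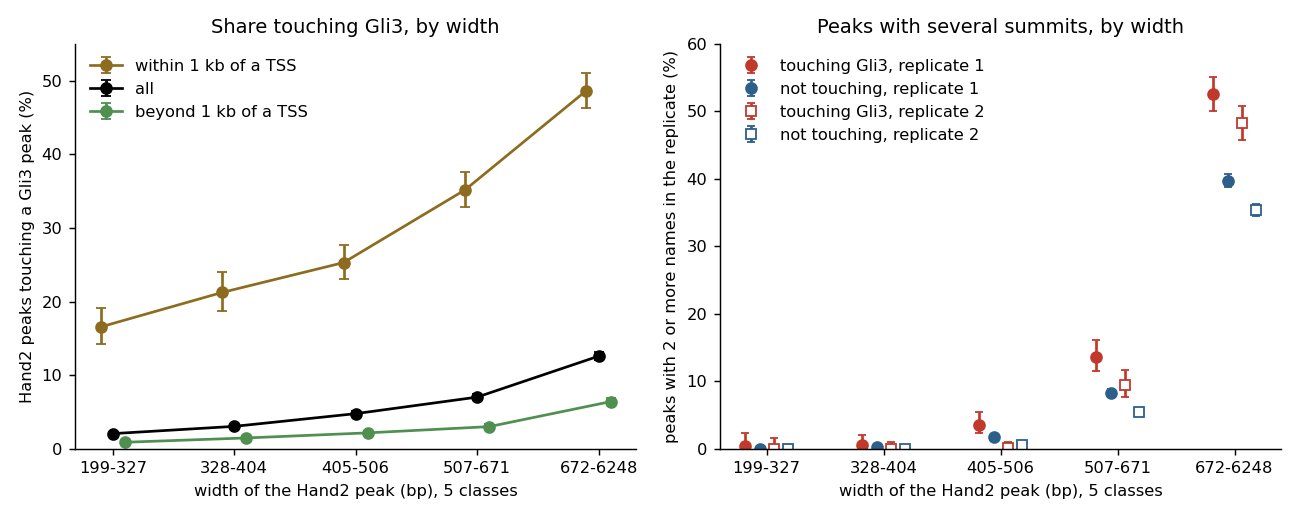
Left, share of Hand2 peaks touching Gli3 (%, y axis) in 5 width classes (bp, x axis), for all peaks and for those within and beyond 1 kb of a TSS. Right, share of Hand2 peaks with 2 or more names in a replicate (%), by the same classes, for peaks touching Gli3 (red) and not (blue), in replicate 1 (circles) and replicate 2 (squares). Bars are Wilson 95% intervals; in the widest class both replicates show more such peaks with Gli3 (52.6% and 48.2%) than without (39.8% and 35.4%).

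The Hand2 E-box was less frequent in the peaks shared with Gli3. CAGATG, searched on both strands in the middle 200 bp, was found in 442 of 3512 peaks with Gli3 (12.6%) and in 16362 of 56071 without (29.2%), a difference of -16.6 points (-17.7 to -15.4, odds ratio 0.349, Fisher's exact test with adjustment over the 6 tests, adjusted p = 7.63e-115). For scale, 15.0% of all 200 bp tiles of the genome and 9.48% of 200 bp windows centred on a protein-coding TSS held CAGATG. The share was lower with Gli3 on 21 of 21 chromosomes. Within 1 kb of a TSS it was 7.39% with Gli3 and 12.7% without, a difference of -5.32 points, and beyond 1 kb 19.9% and 30.6%, a difference of -10.6 points. The odds ratio was 0.360 within width classes and 0.488 within classes of G+C content.

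This difference too was smaller with the whole face Gli3 list, at -3.49 points (24.9% and 28.4%, Fisher's exact test, adjusted p = 6.89e-05). The Hand2 peaks that touched only the Gli3 MNP list held CAGATG in 8.50%, those touching both Gli3 lists in 19.8%, those touching only the whole face list in 29.3% and those touching neither in 29.2%. The broader E-box CANNTG, which includes CAGATG, was present in 49.3% of peaks with Gli3 and 75.7% of those without. Searched over the whole peak, CAGATG was present in 33.1% and 48.0%. Split by place, the whole-peak shares were closer. Beyond 1 kb of a TSS they were 47.3% (44.8 to 49.9) with Gli3 and 49.7% (49.3 to 50.2) without. Within 1 kb they were 23.1% and 27.0%. The peaks with Gli3 beyond 1 kb were also wider, with median widths of 628 and 440 bp. A match is a string of letters and not a measured site.

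The E-box was concentrated at the middle of the peaks without Gli3. Beyond 1 kb of a TSS, those peaks held 2.18 matches of CAGATG per kb of peak within 25 bp of the midpoint and 1.12 at 275 to 300 bp. The peaks with Gli3 held 1.22 per kb within 25 bp and 0.821 at 275 to 300 bp. Several copies in the middle 200 bp were found in 4.92% of peaks without Gli3, with at least 2, and in 1.45% of peaks with Gli3.

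GLI motifs followed the opposite order. GACCACCC was found in the middle 200 bp of 112 peaks with Gli3 (3.19%) and 235 without (0.419%), a difference of 2.77 points (2.24 to 3.41, odds ratio 7.83, Fisher's exact test with adjustment over the 6 tests, adjusted p = 1.63e-51). GACCTCCC was found in 57 (1.62%) and 349 (0.622%), a difference of 1.00 point (0.626 to 1.48, odds ratio 2.63, same exact test, adjusted p = 2.16e-09). In 200 bp tiles of the genome the shares were 0.328% and 0.449%, and in windows on a TSS 0.465% and 0.852%. By both Gli3 lists, GACCACCC was found in 7.51% of Hand2 peaks touching both and 0.757% of those touching only the MNP list. It was found in 3.33% of those touching only the whole face list and 0.342% of those touching neither. Most of the difference in GACCACCC was away from promoters: beyond 1 kb of a TSS it was found in 6.33% of Hand2 peaks with Gli3 and 0.416% of those without, a difference of 5.91 points, and within 1 kb in 0.972% and 0.460%, a difference of 0.512 points (Fisher's exact test, adjusted p = 0.0308). For GACCTCCC within 1 kb the shares were 1.21% and 0.781%, and the difference did not pass Fisher's exact test (adjusted p = 0.094).

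Among the Hand2 peaks with Gli3 beyond 1 kb of a TSS, GACCACCC was more frequent where CAGATG was present. It was found in 36 of 290 peaks with CAGATG (12.4%, 9.10 to 16.7) and in 56 of 1164 without (4.81%, 3.72 to 6.20). Among the Hand2 peaks without Gli3 in the same places the shares were 67 of 15809 (0.424%, 0.334 to 0.538) and 148 of 35911 (0.412%, 0.351 to 0.484). This comparison was made after the motif counts were seen and carries no test. The intron peak of Ptch1 printed above is 1 of the 36.

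**Figure D3:**
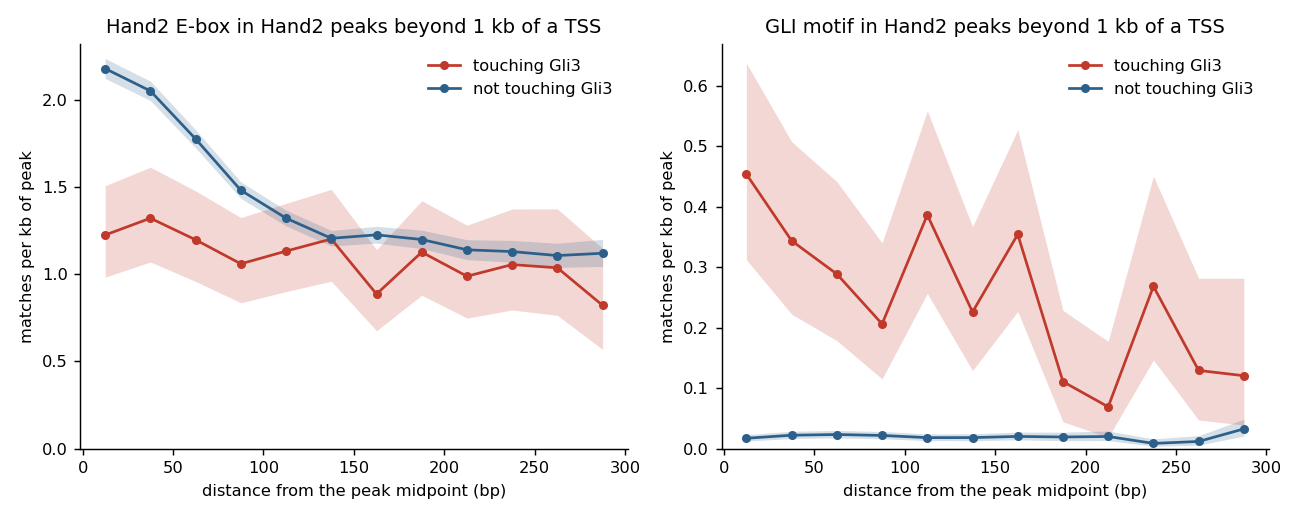
Matches per kb of peak (y axis) by distance from the peak midpoint (bp, x axis, steps of 25 bp) in Hand2 peaks beyond 1 kb of a TSS, for CAGATG (left, the Hand2 E-box) and GACCACCC (right, the GLI motif); red, touching Gli3, blue, not touching, with bands for 95% Poisson intervals. CAGATG falls from 2.18 to 1.12 per kb in peaks without Gli3, and GACCACCC falls from 0.454 to 0.121 per kb in peaks with Gli3 and stays at or below 0.0329 without.

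Hand2 peaks often lay near each other. The gap between successive peaks had a median of 16413 bp, with quartiles of 4974 and 43605 bp. Another Hand2 peak was within 5 kb of 47.1% of peaks with Gli3 and 42.0% of those without, a difference of 5.14 points (3.44 to 6.84, odds ratio 1.23, Fisher's exact test with adjustment over the 6 tests, adjusted p = 2.6e-09). The split itself can add to this difference, because Hand2 peaks that touch the same Gli3 peak are neighbours within the touching group. At 247 of 5424 Gli3 peaks 2 or more Hand2 peaks touched, and the test does not allow for this. Beyond 1 kb of a TSS the difference was 15.2 points (57.8% and 42.6%) and within 1 kb of another Hand2 peak 10.6 points (25.8% and 15.2%). Among the wider peaks, from the median width upwards, it was 1.80 points and did not pass Fisher's exact test (adjusted p = 0.0761). With a limit of 25 kb it turned, with 78.9% of peaks with Gli3 and 80.6% of those without.

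Joining neighbouring peaks, at a distance limit between 5 and 25 kb, gave 1643 clusters of at least 5 Hand2 peaks, which held 11072 peaks (18.6%) and spanned a median of 26247 bp. Gli3 touched 6.20% of the Hand2 peaks inside clusters and 5.83% of those outside, an order that depended on repeated sequence and on the joining distance. Without the peaks alike in sequence to a neighbour, described next, the shares were 5.71% inside and 5.81% outside. With peaks joined at 5 kb they were 9.75% and 5.74%, and at 25 kb 5.40% and 6.28%. In 1228 clusters (74.7%) no Hand2 peak touched Gli3, and in 17 clusters more than 50% did. Most clusters of Hand2 peaks were without Gli3.

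The 2 largest clusters were rows of repeated sequence. Between Gas8 and Rhou, chr8:123538644-123623923 held 49 Hand2 peaks, 38 of them with Gli3, at a median step of 1700.5 bp. Between Hrh1 and Atg7, chr6:114497147-114636842 held 38 Hand2 peaks, none with Gli3, at a median step of 2556 bp. All 49 and all 38 were alike in sequence to another Hand2 peak of the same row, which was counted where at least 0.5 of the 12-base words of the middle 200 bp were shared (Jaccard index). Reads of such copies cannot be assigned to 1 copy with certainty, so the number of peaks in these rows is uncertain. The 2 pairs of neighbouring peaks below show the copies, 100 bp each on the plus strand. The chr8 pair, in an intron of Gm20388, differed at 3 bases over 1707 bp of distance, with Gli3 touching the first peak and not the second. The chr6 pair was identical over 2424 bp of distance.
Gas8 to Rhou row, with Gli3, chr8:123538741-123538840: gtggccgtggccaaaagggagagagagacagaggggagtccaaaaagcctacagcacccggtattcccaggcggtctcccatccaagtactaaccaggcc
Gas8 to Rhou row, without Gli3, chr8:123540448-123540547: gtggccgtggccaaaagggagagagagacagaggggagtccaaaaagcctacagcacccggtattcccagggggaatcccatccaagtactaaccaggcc
Hrh1 to Atg7 row, without Gli3, chr6:114497347-114497446: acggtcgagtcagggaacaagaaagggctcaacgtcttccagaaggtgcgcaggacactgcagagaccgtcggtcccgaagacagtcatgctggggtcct
Hrh1 to Atg7 row, without Gli3, chr6:114499771-114499870: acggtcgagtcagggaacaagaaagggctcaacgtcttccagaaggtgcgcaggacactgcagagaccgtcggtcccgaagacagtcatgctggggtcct

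In all, 274 Hand2 peaks (0.460%) were alike in sequence to another Hand2 peak within 100 kb. They made up 2.25% of the peaks with Gli3 (79) and 0.348% of those without (195). Without these peaks the share of Hand2 peaks touching Gli3 was 5.79%, and the 6 tested differences kept their direction and passed the test.

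The next clusters held no alike peaks. At chr7:142481200-142578086, 24 Hand2 peaks, 2 with Gli3, lay around Tnnt3 and Mrpl23 between Lsp1 and Igf2, a growth factor gene. At chr8:56603072-56707697, 22 Hand2 peaks, 1 with Gli3, lay between Fbxo8 and Hand2 itself. At chr17:83861828-83972575, 21 peaks, 2 with Gli3, lay between Haao and Zfp36l2. Among the clusters with the most Gli3, a stretch of histone genes at chr13:23526460-23586982 held 19 Hand2 peaks, of which 16 touched Gli3 and 6 were alike in sequence to a neighbour.

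Each Hand2 peak was assigned to the nearest protein-coding TSS on its left and on its right, as the authors assigned regions to genes. By this rule 73.4% of 21938 protein-coding genes had at least 1 Hand2 peak next to them (16093 genes), and 23% had at least 1 that touched Gli3 (5051 genes). The median gene had 2 Hand2 peaks. By the single nearest TSS within 100 kb, 57.7% of genes had a Hand2 peak. The count grew with the space around a gene: in 5 classes of the distance between its neighbours' start sites, the median number of Hand2 peaks was 0, 1, 2, 4 and 13, and the share of genes with a Gli3-touching peak rose from 14.3% to 36.4%.

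The genes with the most Hand2 peaks were Zfp608 with 162 (5 with Gli3), the adhesion receptor gene Adgrl2 with 158 (7), the ephrin receptor gene Epha4 with 143 (5), Auts2 with 134 (4), Flrt2 with 126 (1), the potassium channel gene Kcnma1 with 121 (0), Slc4a3 with 115 (4), Zfhx3 with 114 (1), the SoxC transcription factor gene Sox11 with 112 (4) and Lrmda with 111 (0). All 10 had between 1905.56 and 6410.3 kb of neighbourhood, against a median of 94.8 kb for all genes. Gli3 touched few of these peaks at any of the 10 genes. Each peak counts for the gene on either side. Slc4a3 and Epha4 are neighbours, as are Lrmda and Kcnma1, so the Hand2 peaks between them count for both. By the single nearest TSS within 100 kb, Slc4a3 had 3 Hand2 peaks, Epha4 10, Lrmda 16 and Kcnma1 5.

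Counting the single nearest TSS within 100 kb gave another order, which shared 1 gene, Zfp608, with the first 10. Smad7, an inhibitor of TGF-beta signalling, had 32 Hand2 peaks (5 with Gli3), Rhou 30 (18), Atg7 27 (0), Gas8 27 (20), the bHLH gene Twist2 27 (0), Bach2 26 (3), Ccbe1 26 (0), Gm21954 26 (0), the corepressor gene Tle3 26 (4) and Zfp608 25 (0). The peaks of Rhou, Gas8 and Atg7 were largely those of the repeated rows. Ranked per 100 kb of neighbourhood, none of the first 10 stayed, and the top was held by genes with less than 1 kb of neighbourhood.

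The genes with the most Hand2 peaks touching Gli3 were Rhou with 40 and Gas8 with 38, next to the repeated row, Ezh2 and Pdia4 with 13 each, next to another row of alike peaks, and Hes1 and Hmga2 with 11 each. By the single nearest TSS they were Gas8 with 20, Rhou with 18, Pdia4 with 9, and Eapp and Hes1 with 7 each. Hes1, a bHLH repressor of the Notch pathway, had 66 Hand2 peaks in all. From 0.900 to 5.886 kb past its TSS, 4 successive Hand2 peaks touched Gli3, while the peaks centred at -0.164 and -0.873 kb, upstream of it, did not.

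Genes of mandibular patterning had Hand2 peaks throughout. All 25 genes of the list had at least 1, by either assignment, and 15 had at least 1 with Gli3. Of all protein-coding genes 73.4% had a Hand2 peak next to them and 23% had one with Gli3, which is the scale for each list below. The median was 22 Hand2 peaks per gene, or 7.25 per 100 kb of neighbourhood, against 2 and 2.01 for all genes. These genes also had more space, with a median neighbourhood of 303 kb. In the class of all genes with 283 kb or more, 92.5% had a Hand2 peak, 36.4% had one with Gli3 and the median was 13 peaks. The highest counts were at Hand2 (64, 1 with Gli3), the T-box repressor genes Tbx3 (60, 0) and Tbx2 (48, 2) and the nuclear receptor gene Nr2f1 (49, 3). No peak next to the homeobox genes Msx2 (44 peaks) and Gsc (35 peaks) touched Gli3. Dlx5, a homeobox gene of the lower jaw, was different, with 4 of 6 Hand2 peaks touching Gli3 and none of the 6 with CAGATG in the middle 200 bp.

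The Hand2 peaks close to its own gene did not touch a Gli3 MNP peak. Within 50 kb of the Hand2 TSS (chr8:57320983-57324633, plus strand) lay 16 Hand2 peaks, none of which touched Gli3. The nearest was centred 3.43 kb upstream, was 1489 bp wide and had 3 names of each replicate, and no Hand2 peak was within 1 kb of the TSS. Of the 64 Hand2 peaks next to the gene, the only 1 with Gli3 was 655 kb upstream, in the cluster near Fbxo8. The peak centred 7.533 kb downstream, printed above, was 1286 bp wide with 2 names of replicate 1 and 3 of replicate 2.

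The bHLH list, of factors that can dimerise with Hand2 or, for the Id proteins, block bHLH dimers, showed both patterns. All 12 genes had a Hand2 peak and 7 had one with Gli3, with a median of 22 peaks and 4.79 per 100 kb. Tcf4, an E protein gene, had 81 Hand2 peaks and Twist2 had 58, none with Gli3, and 22 of those of Twist2 were within 50 kb of its TSS. Twist1 had 57 (3 with Gli3), of which a peak of 1703 bp centred at -0.043 kb from the TSS and its neighbour in the gene touched Gli3. Id2 had 59 (3) and Id1 had 7, of which 5 touched Gli3, all within 28.3 kb of its TSS. Tcf3, another E protein gene, had a single Hand2 peak, at its promoter and with Gli3.

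In the endothelin pathway, whose signal switches on Hand2 in the jaw, all 10 genes had a Hand2 peak and 3 had one with Gli3, with a median of 17.5 peaks and 3.22 per 100 kb. By the single nearest TSS it was 8 of 10. Plcb4, a phospholipase gene, had 38 Hand2 peaks (0 with Gli3), the receptor gene Ednra 34 (0), the transcription factor gene Mef2c 30 (2) and the receptor gene Ednrb 23 (0). The ligand gene Edn1 had 21 Hand2 peaks, none with Gli3, and 11 of them held CAGATG in the middle 200 bp.

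**Figure D4:**
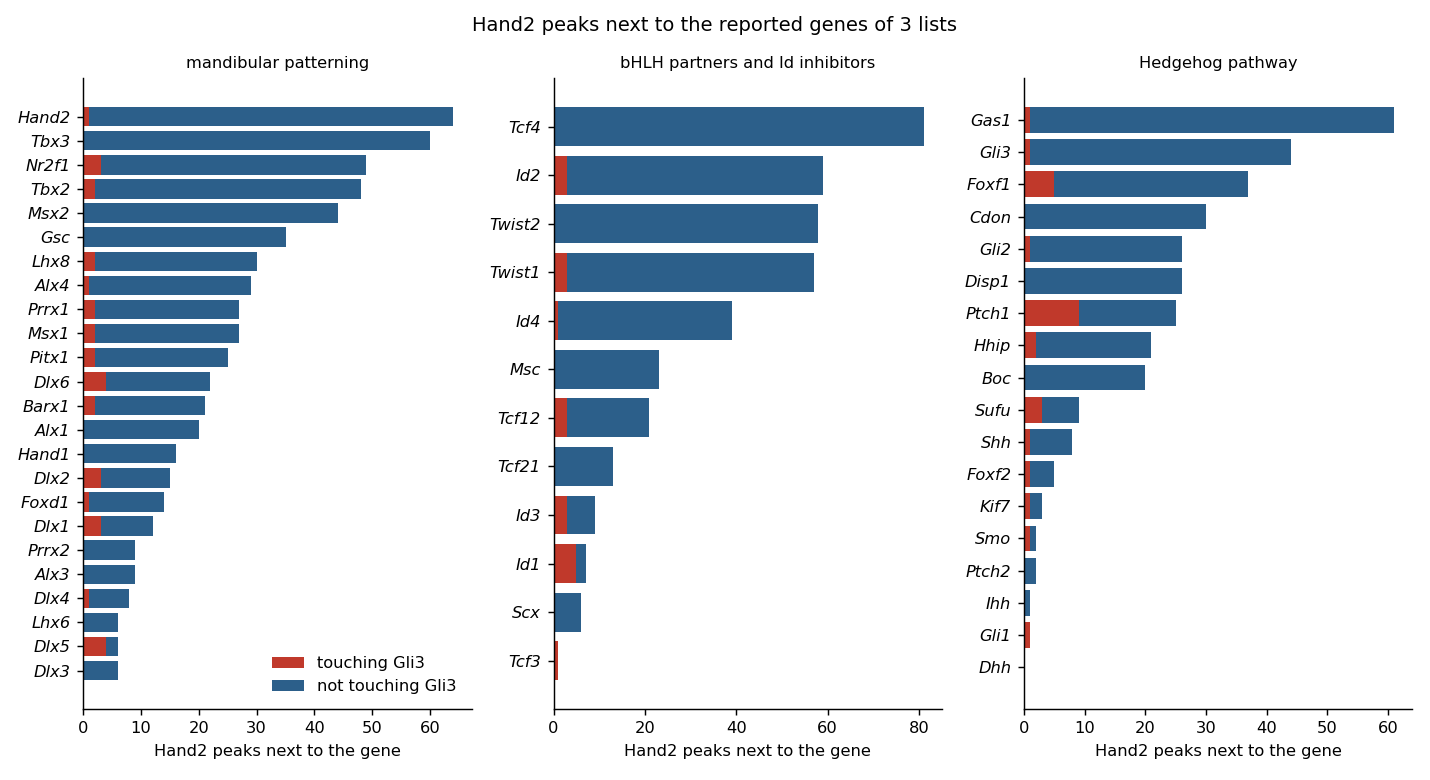
Number of Hand2 peaks next to each gene (x axis) for the reported genes of 3 lists, with each gene a bar: mandibular patterning, bHLH partners and Id inhibitors, and Hedgehog pathway. Red is the number touching Gli3 and blue the number not touching; Hand2 leads the first list with 64 peaks (1 red), and Ptch1 has the most red of the third (9 of 25).

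In the Hedgehog pathway, in which Gli3 acts, 17 of 18 genes had a Hand2 peak and 12 had one with Gli3, with a median of 14.5 peaks and 3.23 per 100 kb. By the single nearest TSS it was 15 of 18. The coreceptor gene Gas1 had 61 Hand2 peaks (1 with Gli3), Gli3 itself 44 (1), the target gene Foxf1 37 (5) and the coreceptor gene Cdon 30 (0). The ligand gene Dhh had none. Ptch1, the receptor and a direct target of GLI proteins, had 25 Hand2 peaks, of which 9 touched Gli3. Of the 12 Hand2 peaks in the body of Ptch1 (chr13:63508328-63573598, minus strand) 7 touched Gli3, and 2 of these held GACCACCC in the middle 200 bp. All 5 Gli3-touching peaks next to Foxf1 were between 172 and 245 kb upstream, in introns of a neighbouring gene. The Gli3-touching Hand2 peak of Gli3 was at its promoter, centred 0.2 kb past the TSS.

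Foxd1, Plagl1, Myh6 and Maf, which the study treats as shared targets, differed in their Hand2 peaks. The study chose them with expression and open chromatin data as well, and tested regions near Foxd1 by gel shifts and reporter assays. It looked for regulatory regions in peaks of pooled replicates. The lists used here hold only peaks called in both replicates, so a region of the study can be missing from the counts below. Foxd1, a forkhead gene of the lower jaw mesenchyme, had 14, of which 1 touched Gli3: the peak of 1588 bp centred 20.1 kb downstream of the TSS, with 2 names of replicate 1 and 3 of replicate 2. It was the widest of the 14, whose median width was 532 bp. Plagl1, a zinc finger gene, had 13, of which 1, in an intron 56.8 kb past the TSS, touched Gli3 and held CAGATG. Myh6, a cardiac myosin gene with 40.7 kb between its neighbours' start sites, had a single Hand2 peak of 514 bp in an intron, without Gli3. Within 50 kb of the Myh6 TSS, whichever gene they were next to, lay 5 Hand2 peaks, of which 2 touched Gli3. Maf had 93 Hand2 peaks over 2065.32 kb of neighbourhood, none with Gli3, and 38 of them (40.9%) held CAGATG. Most of these were far from the gene: 2 Hand2 peaks were within 50 kb of the Maf TSS. By the single nearest TSS within 100 kb, Maf had 4.

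**Figure D5:**
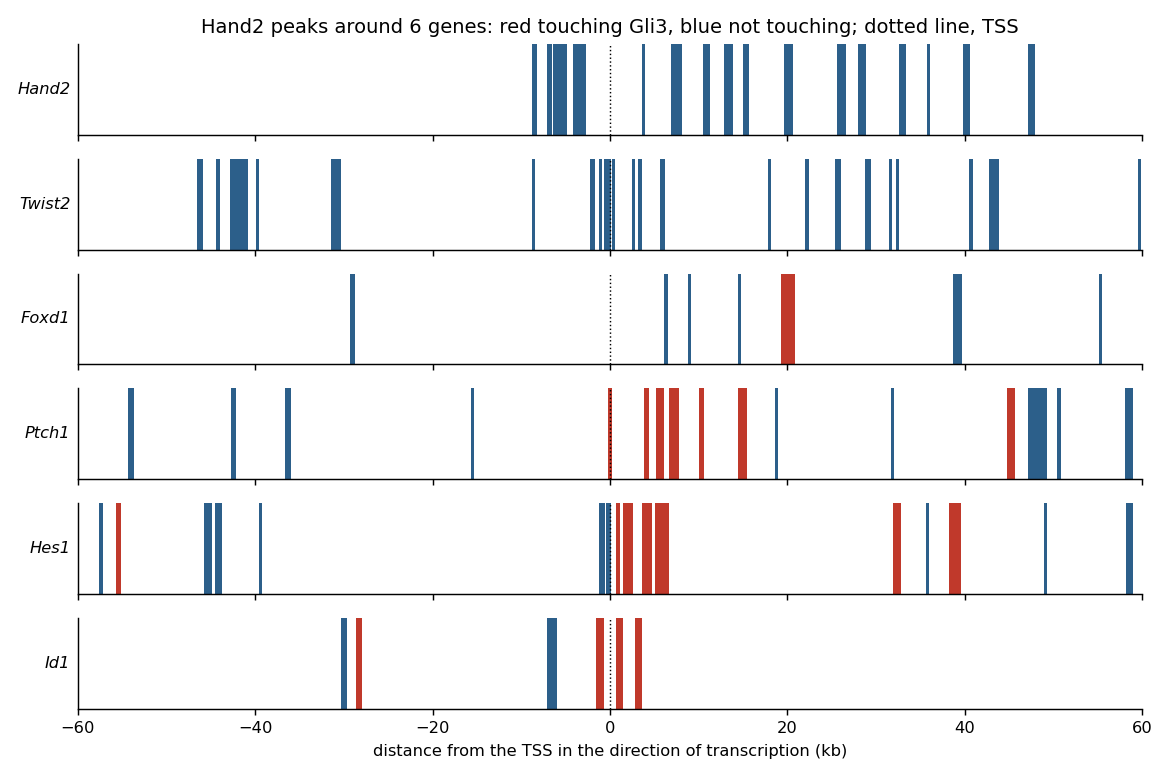
Hand2 peaks within 60 kb of the TSS of 6 genes, drawn to scale by distance from the TSS in the direction of transcription (kb, x axis); red, touching Gli3, blue, not touching, dotted line, TSS. Hand2 and Twist2 show blue peaks only, Foxd1 a single red peak at 20.1 kb, and Ptch1, Hes1 and Id1 several red peaks close to the TSS.

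Lists of later skeletal genes had Hand2 peaks next to each of their members, with fewer per gene than the patterning list. By the single nearest TSS within 100 kb, 14 of 17 cartilage genes and 13 of 16 bone genes had one. All 17 cartilage genes had a Hand2 peak and 6 had one with Gli3, with a median of 7 peaks and 3.72 per 100 kb. Sox9, the leading cartilage regulator, had 97 (3 with Gli3), and Sox5 and Sox6, its partners, had 71 (0) and 61 (2). Maf, also in this list, is described above. All 16 bone genes had a Hand2 peak and 3 had one with Gli3, with a median of 5.5 peaks and 3.47 per 100 kb. Bmp2, a growth factor gene, had 47 (1 with Gli3), the bone regulator Runx2 43 (0), Bmp7 32 (3) and the collagen gene Col1a2 23 (0).

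Markers of other cell types of the sample were also next to Hand2 peaks, with a lower median per gene than the patterning list. All 18 skeletal muscle genes had a Hand2 peak, 3 had one with Gli3, and the median was 4 peaks and 2.50 per 100 kb. Pax3 had 33 (1 with Gli3), and Lbx1 and Mef2a had 9 each (0). Of 14 epithelial genes 10 had a Hand2 peak, 3 had one with Gli3, and the median was 1.5 and 2.65 per 100 kb. Trp63 had 21 Hand2 peaks (1 with Gli3), Grhl2 20 (0) and Grhl3 13 (0), while Krt5, Krt14, Ovol1 and Esrp1 had none. Counting by the single nearest TSS left 16 of 18 muscle genes and 8 of 14 epithelial genes with a Hand2 peak.

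Of 13 neuronal genes 12 had a Hand2 peak, 2 had one with Gli3, and the median was 9 and 1.76 per 100 kb, below that of all genes. Gap43 had 41, Isl1 36 and Syt1 17, none with Gli3, and Tubb3 had none. Of 13 blood and endothelial genes 11 had a Hand2 peak, 4 had one with Gli3, and the median was 9 and 3.89 per 100 kb. Both values were above those of the cartilage list (7 and 3.72) and the bone list (5.5 and 3.47). Runx1 had 77 (2 with Gli3), Cdh5 66 (2), Ptprc 48 (1) and Erg 27 (0), while Gata1 and Klf1 had none. Of 13 liver genes, a tissue that was not sampled, 11 had a Hand2 peak and 1 had one with Gli3, with a median of 3 and 2.65 per 100 kb. Apob had 61, Apoh 25, Apoa1 18 and Cps1 17, none with Gli3, and Serpina1a and Ahsg had none. By the single nearest TSS, 10 of 13 neuronal, 10 of 13 blood and endothelial and 11 of 13 liver genes had a Hand2 peak. A Hand2 peak next to a gene was thus common also where the gene belongs to another tissue, and the counts do not say whether a gene was expressed or changed.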

How the data were processed

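ChIP-seq peak lists of Hand2 in the MNP and Gli3 in the MNP and in the whole face were used, with 2 libraries per group, grouped by their labels. Reads were mapped by the authors to mm10 (GRCm38) with bwa, and the replicates' peaks were joined into a list per group with bedtools. HOMER is also named in the processing notes of the submitters. Versions are not given in the sources used here. The deposited lists hold start and end positions (bp) and merged peak names, a coordinate unit and not counts, with no signal, score or p-value, so the depth is unknown. The labels give the molecule as polyA RNA, which was not used.

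From these, overlaps of at least 1 bp, distances, widths, names, motifs and gene assignments were computed with Python 3.11.15, numpy 2.4.6, scipy 1.17.1 and statsmodels 0.14.6, with the RefSeq GRCm38.p6 genome and GENCODE M21 protein-coding genes. The nearest TSS on each side gave the genes next to a peak; neighbourhood is the distance between the neighbouring start sites. The 3 mitochondrial Gli3 peaks were left out. Shares carry Wilson and differences Newcombe 95% intervals. Two-sided Fisher's exact tests on peaks were adjusted over 6 tests (Benjamini-Hochberg, threshold 0.05). They were checked on simulated independent counts, which lack the neighbouring and repeated peaks of these lists. That check therefore does not cover such dependence, and intervals cover counting error only. The share with names of both replicates was 100% in both groups and was not tested. Alternatives varied the overlap, the Gli3 list, the distances, the motif window, the classes and the gene assignment.

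The members and the 11 gene lists were chosen with earlier results of these data known. Named genes are the 10 with the most Hand2 peaks by each assignment, the 5 with the most that touch Gli3, the 4 members of each list with the most, members with none, genes at the largest clusters and widest peaks, the study's shared targets, and Ptch1, Hand2 and Gli3. Msx2, Gsc, Dlx5, Edn1, Id1 and Tcf3, single clusters past the fifth and genes that only locate a peak were named after their values were seen. Some list members are not reported here; the counts and medians of the lists include them.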

Additional observations from a re-analysis of the deposited data

How the results depend on the processing

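Under the alternatives 78 values kept the direction and the side of the threshold of the main value. Values with no test were counted here where they moved little. The 78 include the share with names of both replicates, which was 100% in both groups and could not change. Some of the 78 changed in size, such as the promoter difference (9.75 points) and the CAGATG difference (-3.49 points) with the whole face list. The values outside the 78 are given here. The difference in the share of Hand2 peaks with a Hand2 neighbour within 5 kb reversed to -1.69 points with a limit of 25 kb and did not pass the test among the wider peaks, from the median width upwards (1.80 points). The GACCTCCC difference did not pass within 1 kb of a TSS (0.433 points). The cause of these changes was not tested. The share of Hand2 peaks touching Gli3 was 4.28% when 50% of the peak had to be covered, 4.70% by its midpoint, 4.54% with the whole face list and 8.93% among those wider peaks. In the same order the difference in the share wider than the median was 23.4, 25.8 and 29.5 points for the first 3, and 21.7 points within 1 kb of a TSS. Clusters of 5 or more peaks numbered 375 at 5 kb and 3133 at 25 kb. Of the 10 genes with the most Hand2 peaks, 1 stayed by the single nearest TSS and 0 per 100 kb. The comparison within classes of G+C content and the removal of peaks alike in sequence were chosen after seeing the data.

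No paired analysis was possible because the deposited lists merge both replicates and no test used values per replicate. Leaving out a replicate could not be tried, because each of the 59583 Hand2 peaks carries names of both replicates and merged positions. Keeping peaks with names of both leaves the list, and the 5.89% touching Gli3, unchanged by its making. How this share depends on a single replicate is therefore unknown. Without read counts or peak heights, weak and strong peaks cannot be told apart.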

Other observations

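Copies of the E-box in tandem were found in a few Hand2 peaks. A peak of 762 bp at chr16:11677570-11678331, in an exon of Snx29, held CAGATG 29 times, and the Lingo2 intron peak of 540 bp held it 26 times over its whole length; neither touched Gli3. Another, in an intron of Ccdc112, held it 67 times in 882 bp and also did not touch Gli3. In the middle 200 bp, 3 or more copies were found in 341 Hand2 peaks without Gli3 (0.608%) and in 3 with Gli3 (0.0854%).

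Rows of alike Hand2 peaks were also found outside the 2 largest. Next to the interferon genes between Gm13283 and Ifna7, 11 Hand2 peaks were alike to a neighbour and none touched Gli3, while next to Ezh2 and Pdia4 9 were alike and all 9 touched Gli3.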
